A study of Homo sapiens with 12 samples.

Results

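The nuclear-encoded subunits of the mitochondrial respiratory chain and ATP synthase were described across 4 groups of ovarian cancer cell libraries. Members were chosen by gene name alone: protein-coding genes named NDUFA, NDUFB, NDUFC, NDUFS or NDUFV with a number, UQCR, COX4 to COX8 with a letter, ATP5, or SDHA to SDHD. The rule took 89 of the 46350 named genes listed in each library. By the complex their protein belongs to, 36 were assigned to complex I, 4 to complex II, 9 to complex III, 19 to complex IV and 19 to complex V, and 2 were readthrough loci (ATP5MF-PTCD1 and NDUFC2-KCTD14). NDUFA4 and NDUFA4L2, which carry a complex I name, were placed with complex IV. CYC1, the cytochrome c1 subunit of complex III, is outside the rule and is given with the other genes of the pathway.

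The samples were SKOV3, a human epithelial ovarian cancer cell line described as cisplatin-sensitive, and SKOV3/DDP, a line of that name described as cisplatin-resistant. Each line was sequenced untreated and after paeonol (PAE, a phenolic compound of the peony root bark), with 3 biological replicates in each of the 4 groups. The labels give no dose, exposure time, passage or batch, and do not say whether SKOV3/DDP is a single clone or whether untreated cells received a vehicle. A difference between the lines is therefore a difference between these cultures only.

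The chain moves electrons from NADH (complex I) and succinate (complex II) through ubiquinone to complex III, cytochrome c and complex IV, where oxygen is reduced. Complexes I, III and IV pump protons across the inner mitochondrial membrane, and complex V uses the gradient to make ATP. Complexes I, III, IV and V also hold subunits encoded by mitochondrial DNA, so both genomes supply them, whereas all 4 subunits of complex II are nuclear. Transcription factors such as NRF1, the ETS factor GABPA and YY1 are known to act on many of these genes.

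The subunit genes differ widely in base composition, which mattered for the comparisons below. The following stretches of coding exons are shown because NDUFB7 and COX5B were among the members that fell most with PAE in SKOV3, and NDUFA5 and ATP5PB among those that rose most (GRCh38, GENCODE 29, coding strand 5′ to 3′, G and C in capitals). The first is from exon 2 of 3 of NDUFB7 (chr19:14566814-14566933, minus strand, 62.5% GC) and the second is from exon 4 of 4 of COX5B (chr2:97647996-97648105, plus strand, 61.8% GC). The third is from exon 3 of 5 of NDUFA5 (chr7:123550470-123550586, minus strand, 35.04% GC) and the fourth from exon 6 of 7 of ATP5PB (chr1:111459457-111459576, plus strand, 39.2% GC). Over the whole transcript, GC content was 65.0% in NDUFB7, 52.0% in COX5B, 36.4% in NDUFA5 and 43.1% in ATP5PB.
NDUFB7: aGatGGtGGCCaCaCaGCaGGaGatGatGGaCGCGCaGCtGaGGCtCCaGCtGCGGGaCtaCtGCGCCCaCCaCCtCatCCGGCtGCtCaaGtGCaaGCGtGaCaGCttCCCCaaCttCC
COX5B: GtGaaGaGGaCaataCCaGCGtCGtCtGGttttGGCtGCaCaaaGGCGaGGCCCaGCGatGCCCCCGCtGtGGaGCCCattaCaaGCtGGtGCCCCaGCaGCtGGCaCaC
NDUFA5: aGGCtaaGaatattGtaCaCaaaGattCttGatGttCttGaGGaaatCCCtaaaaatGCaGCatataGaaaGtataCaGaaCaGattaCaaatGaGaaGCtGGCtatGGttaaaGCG
ATP5PB: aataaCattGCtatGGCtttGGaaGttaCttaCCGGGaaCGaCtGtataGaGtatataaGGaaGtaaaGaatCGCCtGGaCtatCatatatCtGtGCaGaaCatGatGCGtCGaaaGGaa

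Total counts per library lay between 14610008 and 18263479, with a median of 16260043. The untreated SKOV3 libraries stood apart from the other 9: they held between 17951 and 18240 genes with a count, against 21469 to 23194, and their TMM scaling factors (edgeR's correction of library size for composition) were 0.644 to 0.674, against 0.975 to 1.23. Of the fixed epithelial markers, KRT8 and KRT18 were abundant in both lines, whereas KRT7 had a mean of 3607 CPM in SKOV3 and 1.22 CPM in SKOV3/DDP, EPCAM 1.26 and 289 CPM, and KRT19 7.66 and 1349 CPM. The 7 epithelial markers summed to means of 8738 CPM in SKOV3, 2957 CPM with PAE, 11647 CPM in SKOV3/DDP and 2792 CPM with PAE. With PAE, 4 of them were lower and 2 higher in SKOV3, beside 32.7% and 42.6% of all genes (median log2 fold change -1.01). In SKOV3/DDP 5 were lower and none higher, beside 14.7% and 11.8% (median -1.58). With the GC and length trend described below removed, 1 was lower and 5 higher in SKOV3 (median 1.37), beside 21.7% and 26.5%. In SKOV3/DDP 6 were then lower and none higher (median -1.61), beside 17.1% and 16.0%. The part of this in the results below was not tested. Of the ovarian markers, FOLR1 was higher in untreated SKOV3/DDP than in SKOV3 (log2 fold change 8.20) and PAX8 (-2.85) and MUC16 (-2.41) lower, while WT1 was near 0. Whether both lines come from one parent was not tested. The fixed fibroblast markers summed to at most 14.2 CPM and the endothelial ones to at most 10.6 CPM in any library, with COL1A2 and CDH5 at 0 in all 12. Of the leukocyte markers, PTPRC and CD3E were at or near 0 and CD14 had a mean of 67.8, 32.2, 2.70 and 1.70 CPM in SKOV3, SKOV3 with PAE, SKOV3/DDP and SKOV3/DDP with PAE.

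Values below are CPM, the count of a gene scaled to a common library size, with TMM scaling unless stated. Differences are log2 fold changes of edgeR's quasi-likelihood test in 1 fit of all 12 libraries, with p adjusted by Benjamini-Hochberg over 17133 genes and called at 0.05. Each comparison is also given after a smooth trend of every library on the GC content and length of the transcript had been removed, which could be done for 15089 genes. In total, 80 of the 89 members passed the filter on low counts: 35 in complex I, 4 in complex II, 9 in complex III, 14 in complex IV and 18 in complex V. The other 9 (NDUFA3, COX4I2, COX6A2, COX7A1, COX7B2, COX8C, ATP5MGL and the 2 readthrough loci) had between 0 and 17 counts each over the 12 libraries and were not tested.

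The summed level of the 89 subunit genes was 24485, 31129 and 25508 CPM in the untreated SKOV3 libraries and 6159, 6911 and 7291 CPM after PAE. In SKOV3/DDP the sums were 6329.9, 5823 and 6465 CPM untreated and 6131, 5742 and 5013 CPM after PAE. All 3 untreated SKOV3 libraries were thus above the other 9, which lay between 5013 and 7291 CPM. As a share of unscaled counts the members made up 1.77% ± 0.208 (SD, n = 3) in untreated SKOV3 and between 0.565% and 0.896% in the other groups. These values are relative to the counts of each library, so bulk RNA cannot tell fewer expressing cells from less RNA in each cell.

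The complexes did not share this step equally. Complex I summed to 9261 ± 1447 CPM (SD, n = 3) in untreated SKOV3, 1727 ± 158 with PAE, 1548 ± 100.2 in SKOV3/DDP and 1538 ± 239 in SKOV3/DDP with PAE. Complex III went from 3176 ± 488 to 679 ± 57.6 CPM with PAE in SKOV3, and held 736 ± 43.1 and 691 ± 81.7 CPM in the SKOV3/DDP groups. Complex IV showed 8332 ± 861, 1625 ± 77.5, 1238 ± 59.4 and 1354 ± 249 CPM in the same order of groups. Complex II was 944 ± 64.2, 545 ± 61.4, 387 ± 43.1 and 298 ± 10.1 CPM, and complex V 5328 ± 799, 2210.2 ± 263, 2297 ± 134 and 1748 ± 45.6 CPM. The libraries of the 3 groups other than untreated SKOV3 overlapped in complexes I and III. In complex IV those of SKOV3 with PAE and of untreated SKOV3/DDP did not, and in complex II no groups overlapped. In complex V the libraries of SKOV3/DDP with PAE (1701 to 1791 CPM) lay below all those of untreated SKOV3/DDP (2151 to 2414 CPM) and of SKOV3 with PAE (1988 to 2500.5 CPM), which overlapped each other.

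**Figure D1:**
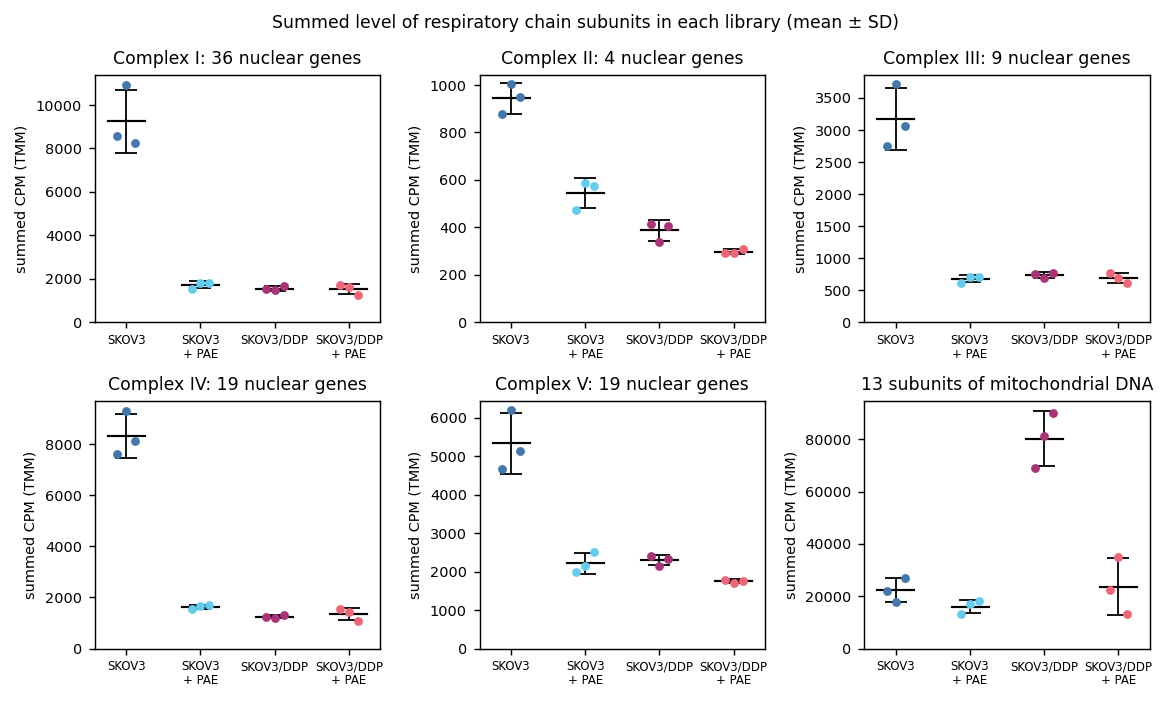
Summed CPM (TMM-scaled) of the nuclear-encoded subunits of each complex and of the 13 subunits of mitochondrial DNA, by group on the horizontal axis; points are libraries, bars the mean ± SD (n = 3). In every nuclear complex the 3 untreated SKOV3 libraries lie above the other 9, while the subunits of mitochondrial DNA are highest in untreated SKOV3/DDP (80296 ± 10554 CPM).

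The first comparison asked what PAE changed in SKOV3. Of the tested members 57 were lower and 11 higher with PAE, with a median log2 fold change of -2.06, against a median of 0.48 over all genes tested. Over all genes, 32.7% were called lower and 42.6% higher, so the share of members lower (71.3%) was above the background and the share higher (13.8%) below it. With the GC and length trend removed, 47 members were lower (58.8%) and 6 higher (7.50%), with a median of -0.95, against 21.7% and 26.5% of all genes and a median of 0.15. By both measures 37 members were lower and 2 higher (NDUFV2 and NDUFS3). The libraries of the groups did not overlap in 67 of the 80. The share of all genes without overlap was not counted, so this is not read as a trait of the members. Scaled by library totals only, 46 members were lower and 19 higher.

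In complex I, 24 of 35 tested subunits were lower and 6 higher with PAE in SKOV3. NDUFB7, an accessory subunit of the membrane arm, had 999, 1259.8 and 868 CPM untreated and 57.6, 91.5 and 73.6 CPM with PAE (log2 fold change -3.81, SE 0.26, adjusted p = 1.46e-08). Every treated library was far below every untreated one, but the difference was 0.13 (adjusted p = 0.557) with the GC and length trend removed. NDUFA13 (also known as GRIM-19), another accessory subunit of high GC content (61.6%), went from 1011, 1415 and 939.7 to 72.3, 133 and 64.3 CPM (log2 fold change -3.64, SE 0.31, adjusted p = 6.19e-08) and remained lower with the trend removed (-0.56, adjusted p = 0.0147). NDUFB8, a membrane arm subunit often used as a marker of assembled complex I, had 366, 561 and 386 CPM untreated and 47.00, 66.5 and 52.2 CPM treated (log2 fold change -2.98, SE 0.26, adjusted p = 7.63e-08), and -0.78 with the trend removed (adjusted p = 0.000626). The groups did not overlap in either of these genes.

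The core subunits of complex I, those kept from bacteria to humans, moved in both directions. NDUFV1, the flavoprotein that binds NADH, went from 538, 618 and 457 to 73.2, 113 and 90.4 CPM (log2 fold change -2.55, SE 0.22, adjusted p = 6.27e-08), which became 0.032 (adjusted p = 0.885) with the trend removed. NDUFV2, the iron-sulfur partner of NDUFV1, rose from 34.1, 51.6 and 51.1 to 71.9, 82.8 and 83.6 CPM (log2 fold change 0.80, SE 0.23, adjusted p = 0.00559), and was also higher with the transcript trend removed (0.60) but lower when GC and length were taken from the coding sequence (-1.28). NDUFS1, the large iron-sulfur subunit, was scarce and uneven, with 8.60, 2.98 and 3.14 CPM untreated and 22.3, 9.75 and 22.2 CPM with PAE (log2 fold change 1.88, SE 0.67, adjusted p = 0.0196), and changed sign with the trend removed (-0.98, adjusted p = 0.193). Of the 7 nuclear core subunits, 3 were higher and 4 lower, and 3 higher and none lower with the trend removed. Of the 28 tested accessory subunits, 3 were higher and 20 lower, and 1 higher and 21 lower with the trend removed.

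Among the subunits that rose, NDUFA5, an accessory subunit of the peripheral arm with the lowest GC content of the tested members (36.4%), had 7.54, 20.5 and 15.2 CPM untreated and 72.1, 64.1 and 108 CPM with PAE (log2 fold change 2.50, SE 0.32, adjusted p = 4.09e-06). The groups did not overlap, yet the value was -0.38 (adjusted p = 0.284) with the transcript trend removed and 0.82 with the coding sequence trend removed. The sign of the NDUFA5 difference therefore depended on the allowance made for base composition.

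Complex II, succinate dehydrogenase, gave no common direction, with 2 subunits lower and 1 higher. SDHA, the flavoprotein that oxidizes succinate, fell from 689, 726 and 704 to 233, 313 and 285 CPM (log2 fold change -1.35, SE 0.20, adjusted p = 1.44e-05). SDHB, the iron-sulfur subunit, had 49.7, 65.4 and 65.8 CPM untreated and 80.8, 81.9 and 72.98 CPM with PAE (log2 fold change 0.38, SE 0.18, adjusted p = 0.0692). SDHD, a membrane anchor, rose from 15.7, 26.2 and 23.9 to 87.97, 100.4 and 119.6 CPM (log2 fold change 2.23, SE 0.22, adjusted p = 2.97e-07), and its value with the transcript trend removed was 0.089 (adjusted p = 0.754), and 2.94 with that of the coding sequence. SDHC, the other anchor, was the only one of the 4 called lower under all allowances tried, with 123, 189 and 155 CPM untreated and 73.2, 91.4 and 95.7 CPM treated (log2 fold change -0.84, SE 0.22, adjusted p = 0.00278). The median of the 4 was -0.23, and it was 0.65 when libraries were scaled by their totals only.

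In complex III, the cytochrome bc1 complex, 7 of 9 subunits were lower and 1 higher with PAE in SKOV3. UQCRC1, a large core protein facing the matrix, went from 1381, 1463 and 1369.7 to 174, 218 and 239.5 CPM (log2 fold change -2.74, SE 0.20, adjusted p = 2.21e-08), and -0.58 with the trend removed (adjusted p = 0.00943). Its partner UQCRC2 was nearly undetected, at 0.443, 0.0852 and 0.339 CPM untreated and 3.25, 1.02 and 2.05 CPM with PAE (log2 fold change 2.83, SE 0.71, adjusted p = 0.00208), so that its fold rests on few counts. UQCRB, a small subunit at the ubiquinone pocket, had 107, 182 and 129 CPM untreated and 61.5, 60.8 and 38.7 CPM treated (log2 fold change -1.37, SE 0.26, adjusted p = 0.000186), and its difference was -4.75 with the transcript trend removed. The transcript model is 5575 bases long for a coding part of 333, and the value was -3.07 with the coding sequence. The Rieske iron-sulfur protein UQCRFS1 was 135, 117 and 134 CPM untreated and 93.8, 115 and 155 CPM with PAE, with overlapping groups (log2 fold change -0.082, SE 0.23, adjusted p = 0.768), but -2.11 with the trend removed.

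Complex IV, cytochrome c oxidase, was the most uniform, with 13 of 14 tested subunits lower and none higher. COX5B, which binds zinc on the matrix side, dropped from 699.8, 1010.5 and 700.0 CPM to 48.8, 74.6 and 59.2 CPM (log2 fold change -3.72, SE 0.28, adjusted p = 2.51e-08), and remained lower with the trend removed (-2.34, adjusted p = 8.13e-07). COX4I1, the ubiquitous form of the regulatory subunit 4, was the most abundant member in untreated SKOV3 and went from 2196, 2509.6 and 2242 to 511, 522 and 592 CPM (log2 fold change -2.10, SE 0.22, adjusted p = 5.79e-07), a difference that became 0.10 (adjusted p = 0.636) with the transcript trend removed and -1.47 with that of the coding sequence. COX6C had 181, 245 and 214 CPM untreated and 62.98, 61.4 and 77.6 CPM treated (log2 fold change -1.66, SE 0.24, adjusted p = 1.17e-05). COX7B, a small subunit of the membrane part, fell from 315, 421 and 404 to 101, 82.9 and 90.6 CPM (log2 fold change -2.05, SE 0.22, adjusted p = 4.69e-07). No treated library reached an untreated one in any of these 4 genes. With the trend removed, 9 of the 14 were lower and none higher.

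In complex V, the direction differed between parts of the enzyme. All 8 tested subunits of the membrane part were lower, with log2 fold changes between -2.81 and -2.03, and 5 of them remained lower with the trend removed. ATP5MC3, one of 3 genes for the identical c-ring subunit, went from 624, 898 and 723 to 102, 143 and 113 CPM (log2 fold change -2.65, SE 0.23, adjusted p = 7.54e-08), and ATP5MC1 from 183, 229 and 175 to 32.8, 38.8 and 50.98 CPM (log2 fold change -2.26, SE 0.23, adjusted p = 3e-07). Removing the trend gave -5.72 for ATP5MC3 and 0.023 for ATP5MC1 (adjusted p = 0.934), so the transcript allowance moved these 2 paralogs apart. The annotated transcript of ATP5MC3 is 5484 bases long for a coding part of 426, and with the coding sequence the values were -3.18 and -1.07.

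The catalytic head did not move as a whole. ATP5F1A, the alpha subunit, rose from 132, 66.2 and 85.3 to 197, 228 and 321 CPM (log2 fold change 1.40, SE 0.27, adjusted p = 0.000222), whereas ATP5F1B, the beta subunit, fell from 1333, 1533 and 1541 to 731, 757 and 881 CPM (log2 fold change -0.90, SE 0.21, adjusted p = 0.00123). With the trend removed both were lower, at -0.56 and -0.66. ATP5PB, subunit b of the peripheral stalk, rose from 23.2, 21.6 and 18.4 to 89.9, 90.3 and 116 CPM (log2 fold change 2.23, SE 0.20, adjusted p = 8.91e-08), and was -0.24 (adjusted p = 0.307) with the trend removed. Of the 4 stalk subunits, 1 was higher and none lower. ATP5IF1, the inhibitory factor, had 1.77, 16.4 and 2.29 CPM untreated and 0.872, 0.660 and 0.684 CPM treated (log2 fold change -3.20, SE 0.81, adjusted p = 0.00212). Its level rested on replicate 2 of SKOV3, without which the log2 fold change was -1.45 and not called.

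The allowance for GC content changed how the members compared with other genes. Over all 15089 tested genes with a GC value, the log2 fold change of PAE in SKOV3 fell with GC content (Spearman rho = -0.80), and over the 80 members rho was -0.61; the genes share the same 6 libraries. The median GC content of the members was 48.5%, close to that of all tested genes (49.8%), but their transcripts were shorter (median of 1080 against 2889 bases). In the 27 members under 45.7% GC, the median was -0.47, against 2.88 for all genes of that range. In the 27 members above 53.4% GC it was -2.74, against -1.89 for all genes. With the trend removed, the medians were -2.29 under 45.7% GC and -0.13 above 53.4%, against 0.20 and 0.08 over all genes, and rho over the members became 0.61. The low-GC subunits were thus lower than other genes of their base composition, and the GC-rich subunits, which had the larger folds, lay nearer to theirs.

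**Figure D2:**
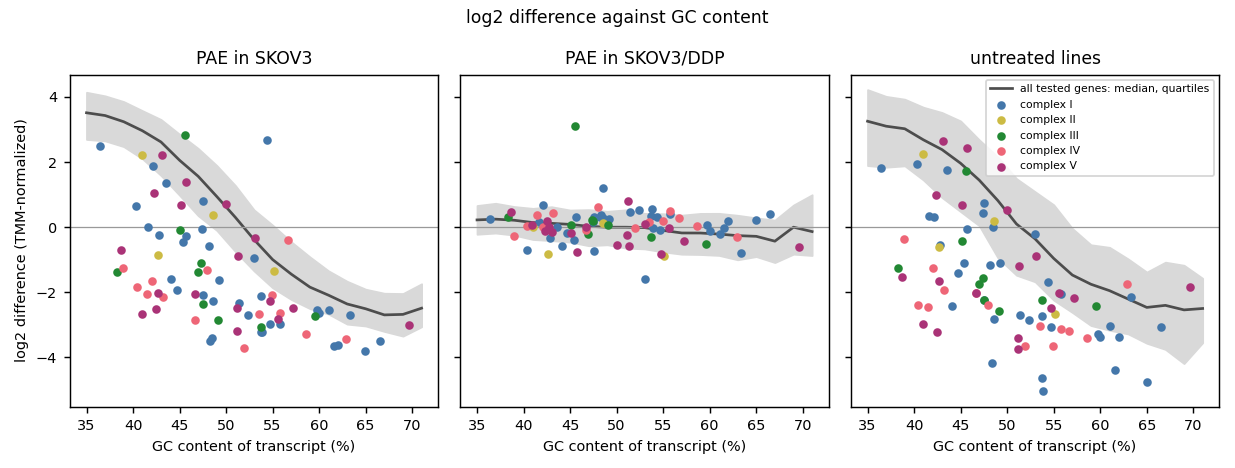
log2 fold change (TMM-scaled) against the GC content of the transcript in percent for PAE against untreated SKOV3, PAE against untreated SKOV3/DDP, and untreated SKOV3/DDP against untreated SKOV3; points are the 80 tested members coloured by complex, the line and band the median and quartiles of all tested genes in bins of GC content. In the left and right panels the band descends with GC content and most members lie below it, while in the middle panel the median of the members is 0.05.

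The choice of allowance mattered as well. Removing a trend on GC alone left 62 members lower and 1 higher with PAE in SKOV3, beside 22.6% and 26.5% of all genes. The longest transcript of each gene gave 54 and 6, beside 21.3% and 26.9%. The coding sequence gave 55 and 8, beside 27.5% and 26.7%. In all 5 fits, 29 members were called lower: 11 of complex I, SDHC of complex II, 4 of complex III, 8 of complex IV and 5 of complex V. The complex IV members of this set were COX5A, COX5B, COX6C, COX7A2, COX7A2L, COX7B, COX7C and NDUFA4. Those of complex V were ATP5MC2, ATP5MC3, ATP5MD, ATP5MG and ATP5MPL, all of the membrane part. Only NDUFS3, a core subunit of complex I with a mean of 1.23 ± 0.800 CPM untreated and 7.89 ± 8.23 CPM with PAE, was called higher in all 5. The share of all genes called alike in all 5 fits was not counted, here or in the comparisons below. The untreated SKOV3 condition and a property of its libraries cannot be told apart in this design.

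The second comparison asked the same of the resistant line. In SKOV3/DDP, 9 members were lower and 2 higher with PAE, with a median log2 fold change of 0.05 (3 lower and 3 higher when scaled by library totals only). The shares, 11.3% and 2.50%, were below those of all genes, at 14.7% lower and 11.8% higher. After removal of the trend 8 were lower and 8 higher, against 17.1% and 16.0% of all genes. The GC relation was weak here, with rho of -0.07 over the members and -0.17 over all genes. In all 5 fits 9 members were nevertheless called, of which 8 are described below.

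SDHA had 124, 90.2 and 122 CPM untreated and 61.5, 57.4 and 64.7 CPM treated (log2 fold change -0.87, SE 0.20, adjusted p = 0.00518). SDHC went from 117, 84.3 and 106 to 50.2, 54.7 and 67.8 CPM (log2 fold change -0.83, SE 0.22, adjusted p = 0.0131). Every treated library was below every untreated one in both genes. SDHB and SDHD, the other subunits of complex II, had log2 fold changes of 0.12 (adjusted p = 0.664) and 0.0077 (adjusted p = 1.00). Thus 2 of the 4 genes of complex II were called lower.

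In complex V of SKOV3/DDP, the alpha and beta subunits were both lower. ATP5F1A fell from 562, 462 and 515 to 285, 256 and 367 CPM (log2 fold change -0.76, SE 0.26, adjusted p = 0.0451) and ATP5F1B from 715, 631 and 570.2 to 381, 347 and 545 CPM (log2 fold change -0.59, SE 0.21, adjusted p = 0.0498). ATP5MC1 fell from 36.2, 32.1 and 36.4 to 22.5, 21.6 and 15.7 CPM (log2 fold change -0.81, SE 0.22, adjusted p = 0.015). Groups did not overlap in these 3 genes, although the calls of ATP5F1A and ATP5F1B stood just under the threshold. ATP5IF1 stayed under 2 CPM in every library of this line (log2 fold change 0.81, SE 0.84, adjusted p = 0.513).

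NDUFB5, an accessory subunit of the complex I membrane arm, fell from 81.9, 75.9 and 78.1 to 44.98, 46.05 and 52.98 CPM (log2 fold change -0.71, SE 0.23, adjusted p = 0.032). The 2 members that rose were COX5A, from 52.9, 60.2 and 57.8 to 105, 85.00 and 69.7 CPM (log2 fold change 0.61, SE 0.21, adjusted p = 0.0462), and UQCRC2, from 0.865, 0.568 and 1.47 to 14.5, 3.62 and 6.88 CPM (log2 fold change 3.09, SE 0.60, adjusted p = 0.0022). NDUFV1 (-0.22), NDUFB8 (-0.079), COX4I1 (0.18), COX5B (-0.036), COX6C (0.011) and UQCRFS1 (0.079) had log2 fold changes within 0.22 of 0 and overlapping groups. UQCRC1 (-0.52, adjusted p = 0.0583) and NDUFS1 (0.67, adjusted p = 0.478) did not pass the test. The call counts of this comparison depended on single libraries: without replicate 3 of untreated SKOV3/DDP 2 members were lower and 1 higher, and without replicate 3 of the treated group 5 were lower and 4 higher.

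**Figure D3:**
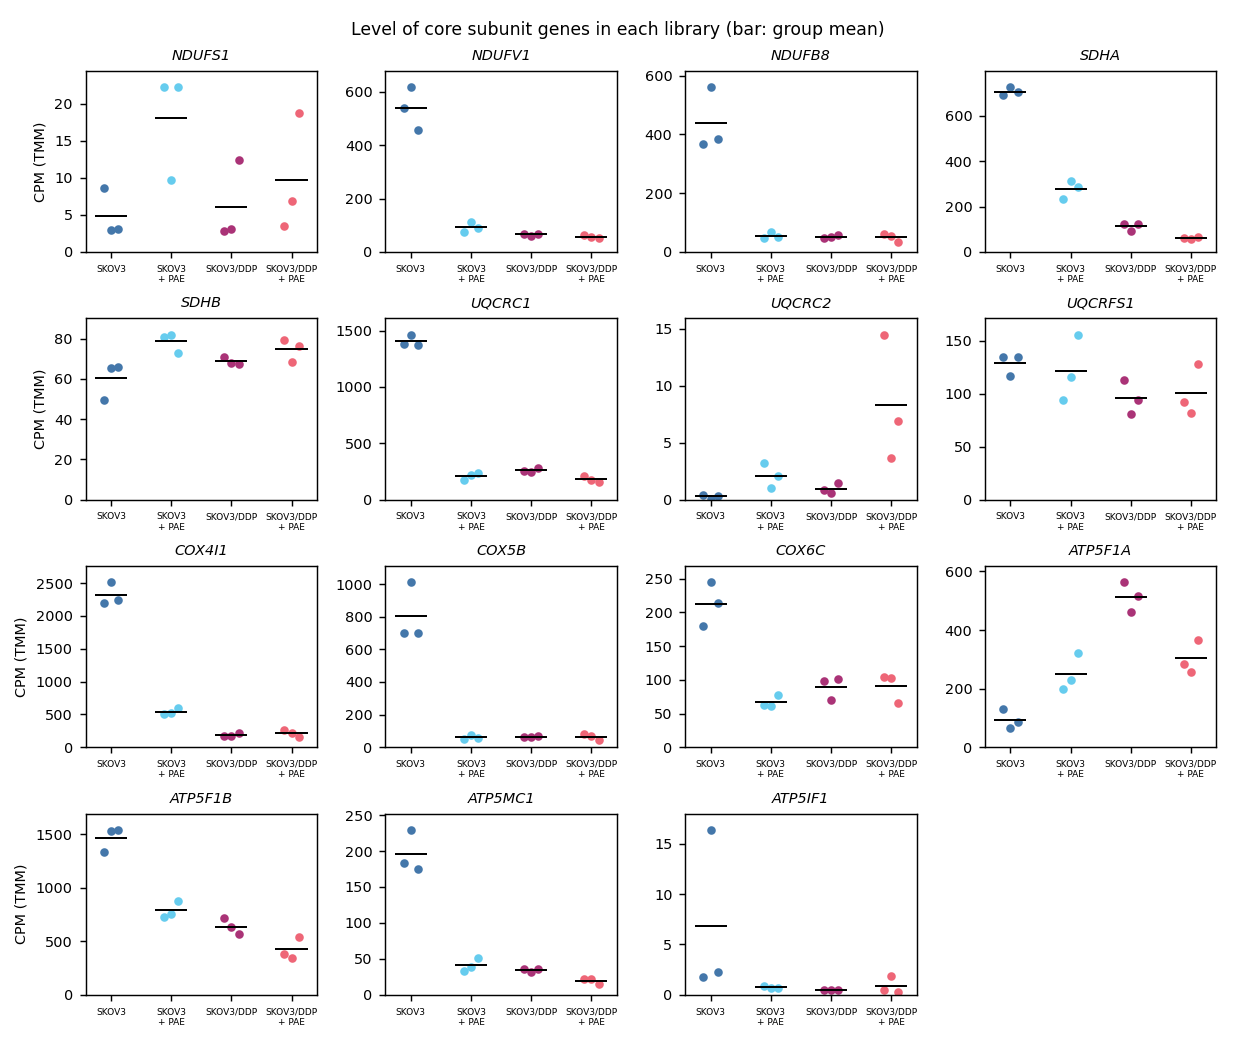
CPM (TMM-scaled) of 15 subunit genes in each of the 12 libraries, by group on the horizontal axis; points are libraries and bars group means, and each panel has its own scale from 0. SDHA, ATP5F1A, ATP5F1B and ATP5MC1 fall with PAE in SKOV3/DDP without overlap of the groups, and UQCRC2 and ATP5IF1 stay under 20 CPM in all libraries.

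The third comparison set the untreated lines side by side. It shares the untreated SKOV3 libraries with PAE in SKOV3, and so does the difference of the PAE effect below. In SKOV3/DDP 58 members were lower than in SKOV3 and 11 higher, with a median of -2.02, against 0.54 over all genes. The background was 36.0% lower and 45.8% higher, and the members' shares were 72.5% and 13.8%. Once the trend was removed, 54 were lower (67.5%) and 9 higher (11.3%), with a median of -1.25, against 33.9% and 35.6% of all genes. In all 5 fits, 37 were lower and 1 (ATP5F1A) higher.

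Complex I had 23 of 35 tested subunits lower and 5 higher, and 23 lower and 4 higher with the trend removed. The largest difference was that of NDUFS6, which carries zinc in the NADH module, at 531, 809.7 and 514 CPM in SKOV3 and 21.4, 16.6 and 18.2 CPM in SKOV3/DDP (log2 fold change -5.04, SE 0.28, adjusted p = 1.17e-09). It was also lower with the trend removed (-3.42); its locus overlaps MRPL36, and the strand of counting is not given in the sources used here. NDUFB7 had 39.9, 33.2 and 43.5 CPM in SKOV3/DDP (log2 fold change -4.74, SE 0.27, adjusted p = 1.33e-09, and -1.16 with the trend removed), and NDUFA1, an X-linked accessory subunit, 203, 441 and 237 against 11.02, 14.1 and 10.8 CPM (log2 fold change -4.62, SE 0.49, adjusted p = 3.97e-07). NDUFV1 (-3.04) and NDUFB8 (-3.06) were lower as well, and both remained so with the trend removed (-0.61 and -0.86). NDUFV2 was higher (0.74), also with the transcript trend removed. It changed sign with GC alone, the longest transcript or the coding sequence. NDUFS1 (0.31, adjusted p = 0.675) did not pass the test, though it was lower with the trend removed (-2.45).

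In complex II, SDHA was lower in SKOV3/DDP (log2 fold change -2.65, SE 0.21, adjusted p = 1.7e-08), also with the trend removed (-1.64). SDHD was higher (log2 fold change 2.24, SE 0.22, adjusted p = 2.34e-07), but was not called higher with the trend removed and changed sign with GC alone. SDHB was 0.19 (adjusted p = 0.342). SDHA reads may be shared with its pseudogene copies, whose summed mean over the libraries was 12.4 CPM beside 289 CPM of SDHA. In complex III, UQCRC1 was lower (log2 fold change -2.43, SE 0.20, adjusted p = 3.32e-08), UQCRC2 had 0.967 against 0.289 CPM (adjusted p = 0.043), and UQCRFS1 was -0.43 (adjusted p = 0.102), or -2.46 with the trend removed (adjusted p = 3.15e-07). In complex IV, COX4I1 was 175, 170.4 and 209.9 CPM in SKOV3/DDP, below every library of SKOV3 with or without PAE (log2 fold change -3.64, SE 0.24, adjusted p = 4.05e-09, and -1.45 with the trend removed). COX5B (-3.64), COX7B (-2.44) and COX6C (-1.24) were lower, and 13 of the 14 tested subunits were, or 12 with the trend removed.

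Complex V had 13 of 18 tested subunits lower and 4 higher, beside 36.0% and 45.8% of all genes. With the trend removed 9 were lower and 5 higher (median -0.44), beside 33.9% and 35.6% of all genes. ATP5F1A was the only one called higher in all 5 fits. Its level was 513 CPM in SKOV3/DDP against 94.4 CPM in SKOV3 (log2 fold change 2.44, SE 0.28, adjusted p = 9.18e-07), and it was higher with the trend removed too (0.43, adjusted p = 0.045). ATP5F1B was lower (log2 fold change -1.20, SE 0.21, adjusted p = 8.78e-05). ATP5PB was higher (log2 fold change 2.65, SE 0.20, adjusted p = 1.35e-08), but not with the trend removed (0.28, adjusted p = 0.185). The membrane subunits ATP5MC3 (-2.97), ATP5MG (-3.22) and ATP5MC1 (-2.49) were lower, and ATP5IF1 was -3.73 on low counts.

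The fourth comparison, of the lines after PAE, did not use the untreated SKOV3 libraries, and its relation to GC content was weak (rho of -0.14 over the members and -0.01 over all genes). In SKOV3/DDP with PAE, 19 members were lower than in SKOV3 with PAE and 15 higher, with a median of -0.17. Their shares of 23.8% and 18.8% were below the 27.1% and 27.5% of all genes. After removal of the trend 17 were lower and 20 higher, against 29.6% and 30.5% of all genes. The same direction was called in all 5 fits for 17 lower and 11 higher members.

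SDHA was the abundant member with the largest difference between the treated lines, at 233, 313 and 285 CPM in SKOV3 and 61.5, 57.4 and 64.7 CPM in SKOV3/DDP (log2 fold change -2.18, SE 0.20, adjusted p = 3.86e-07). NDUFS6 followed, with 52.2, 83.9 and 64.4 and 21.2, 18.00 and 16.4 CPM (log2 fold change -1.85, SE 0.24, adjusted p = 1.56e-05), and NDUFB3, an accessory subunit, had 23.6, 33.8 and 23.7 and 11.5, 10.5 and 9.30 CPM (log2 fold change -1.37, SE 0.32, adjusted p = 0.00187). COX4I1 (log2 fold change -1.36, SE 0.22, adjusted p = 0.000101), ATP5MC1 (-1.04), ATP5F1B (-0.90) and NDUFV1 (-0.71) were lower too. The groups did not overlap in these genes.

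Higher in SKOV3/DDP with PAE were NDUFA7, an accessory subunit, with 13.8, 18.3 and 10.3 CPM in SKOV3 and 48.95, 33.9 and 25.03 CPM in SKOV3/DDP (log2 fold change 1.34, SE 0.27, adjusted p = 0.000667), and NDUFS7, the core subunit of the last iron-sulfur cluster, with 21.03, 33.5 and 24.6 and 53.6, 49.2 and 36.4 CPM (log2 fold change 0.81, SE 0.23, adjusted p = 0.00692). NDUFC1 (26.5, 22.1 and 24.3 and 44.2, 49.9 and 30.3 CPM, log2 fold change 0.77) was higher as well; its locus overlaps NAA15, which had a mean of 53.1 CPM in all. UQCRC2 was higher on low counts (log2 fold change 1.98, SE 0.56, adjusted p = 0.00767). SDHB (-0.070), COX5B (0.050), COX6C (0.43), NDUFB8 (-0.16), UQCRC1 (-0.21), UQCRFS1 (-0.27), ATP5F1A (0.28), NDUFS1 (-0.90) and ATP5IF1 (0.27) did not pass the test by TMM-scaled counts. COX6C did with the trend removed (0.60, adjusted p = 0.0206). Complex III had 2 of 9 members higher and none lower, beside 27.5% and 27.1% of all genes, and complex II 2 of 4 lower and none higher. With the trend removed 3 of complex III were higher and 1 of complex II lower, beside 30.5% higher and 29.6% lower of all genes. With so few members these counts are not read as a difference between the complexes.

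Whether PAE acted differently in the lines was tested by the interaction term, the log2 fold change in SKOV3/DDP minus that in SKOV3. It was positive in 51 members and negative in 7, with a median of 1.91, against -0.62 over all genes, of which 25.5% were called positive and 37.4% negative. With the trend removed, 46 were positive and 6 negative, with a median of 1.06, against 19.1% and 22.0% of all genes. In all 5 fits 25 were positive and none negative. Scaled by library totals only, 46 were positive and 13 negative.

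By complex, the difference was called positive in 13 of 14 tested members of complex IV, 6 of 9 of complex III, 22 of 35 of complex I and 10 of 18 of complex V, and in none of the 4 of complex II, beside 25.5% of all genes. With the trend removed the positive counts were 10, 7, 23, 5 and 1 in the same order, beside 19.1% of all genes. Complexes I and V then had 3 negative members each. All 8 membrane subunits of complex V were positive by TMM-scaled counts, with differences between 1.45 and 2.79, and 4 of them with the trend removed. COX5B changed by -3.72 in SKOV3 and -0.036 in SKOV3/DDP, a difference of 3.69 (SE 0.37, adjusted p = 1.01e-06), and 2.39 with the trend removed. For NDUFB7 the difference was 4.02 (SE 0.34, adjusted p = 3.29e-07) and for NDUFS7 3.88 (SE 0.33, adjusted p = 3.31e-07). Without the trend they were 0.47 (adjusted p = 0.148) and 0.83 (adjusted p = 0.00921). For COX7B, UQCRB and ATP5MC3 the differences of 2.42, 1.68 and 2.71 became 4.93, 4.90 and 5.64. These genes have long transcript models for short coding parts, and with the coding sequence the values were 3.08, 3.18 and 3.16.

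Among the 7 negative differences were those of ATP5PB (-2.38), NDUFA5 (-2.25), SDHD (-2.22), ATP5F1A (-2.16) and ATP5PO (-1.26, adjusted p = 0.0261), the last a stalk subunit. SDHD was the only member of complex II called negative. Of the 7, only the difference of ATP5PO was also called negative with the trend removed (-1.78), and it was 0.19 with the coding sequence. SDHA (0.48, adjusted p = 0.144), SDHB (-0.26), NDUFS1 (-1.21), ATP5F1B (0.31), UQCRC2 (0.26) and UQCRFS1 (0.16) did not pass the test of the difference by TMM-scaled counts. With the trend removed, UQCRFS1 (2.11, adjusted p = 9.42e-05) passed it.

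**Figure D4:**
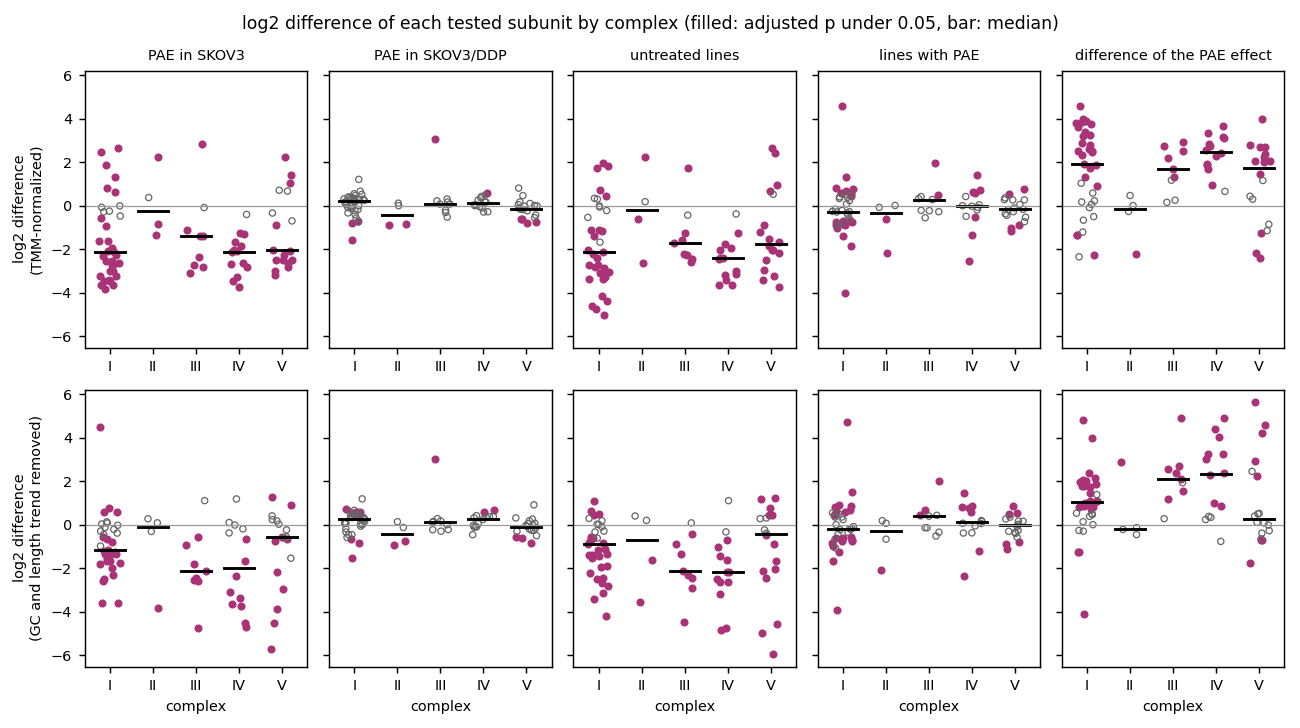
log2 difference of each tested member by complex in the 5 comparisons (PAE against untreated in each line, SKOV3/DDP against SKOV3 untreated and with PAE, and the PAE effect in SKOV3/DDP minus that in SKOV3), TMM-scaled in the upper row and with the GC and length trend removed in the lower. Filled points passed an adjusted p of 0.05 and bars are medians. Complex IV has a median of -2.12 and -2.01 in the 2 rows with PAE in SKOV3, while with PAE in SKOV3/DDP the medians of the 5 complexes in the upper row lie between -0.41 and 0.20.

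The 13 subunits encoded by mitochondrial DNA, which complete complexes I, III, IV and V, were read from the same libraries. In SKOV3/DDP all 13 were lower with PAE, with log2 fold changes between -2.64 and -1.04, and between -2.66 and -1.11 with the trend removed. Over all genes 14.7% were lower, and 17.1% with the trend removed. COX1, the catalytic subunit of complex IV, went from 24200.3, 26978 and 30378 to 5322, 8783 and 3424 CPM (log2 fold change -2.22, SE 0.30, adjusted p = 0.000196), and COX3, its neighbour in the complex, from 4719, 5599 and 5839 to 855, 1312 and 419.5 CPM (log2 fold change -2.64, SE 0.36, adjusted p = 0.000234). The groups did not overlap in any of the 13, and within the treated group replicate 2 was the highest and replicate 3 the lowest in each. The share of all genes without overlap was not counted here either. Together they took 7.58% to 9.80% of the counts untreated and 1.52% to 4.26% with PAE. The other mitochondrial genes, chiefly the ribosomal RNAs RNR2 and RNR1, took 1.08%, 1.66% and 1.39% untreated and 4.08%, 4.41% and 2.42% with PAE, all treated libraries being above all untreated ones. All mitochondrial counts together made up 8.66%, 9.57% and 11.2% untreated and 6.76%, 8.67% and 3.93% treated, so that the groups overlapped in this sum. The part of this shift in the fall of the 13 was not tested. Of the 14 tested nuclear subunits of complex IV, 1 was higher and none lower in that comparison. In SKOV3, 3 of the 13 were called lower with PAE and none higher, beside 32.7% and 42.6% of all genes. With the trend removed 10 were lower there, beside 21.7%. All 13 were higher in untreated SKOV3/DDP than in SKOV3, beside 45.8% of all genes. With the trend removed 12 were higher, beside 35.6%, and only 1 was called higher in all 5 fits.

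The electron carriers and helpers of the chain were taken from fixed lists. CYC1 fell with PAE in SKOV3 from 1653, 1996 and 1473 to 119, 195 and 159 CPM (log2 fold change -3.44, SE 0.24, adjusted p = 1.67e-08), and -0.53 with the trend removed, like the abundant subunits of its complex. CYCS, cytochrome c itself, rose from 19.6, 35.4 and 24.6 to 143, 108 and 109.9 CPM (log2 fold change 2.18, SE 0.27, adjusted p = 2.41e-06), but was -0.73 with the trend removed. Of the 55 assembly factors, all tested, 26 were lower and 21 higher with PAE in SKOV3, beside 32.7% and 42.6% of all genes, and 34 lower and 2 higher with the trend removed, beside 21.7% and 26.5%. The 2 that were higher in both were TTC19 (2.53) and UQCC1 (0.74), factors of complex III. In all 5 fits 9 assembly factors were lower and 1 higher. In SKOV3/DDP 7 assembly factors were lower (12.7%) and 2 higher (3.64%), shares under the 14.7% and 11.8% of all genes. Among them ACAD9, required to build complex I, fell by 1.59 on the log2 scale, and COA3 and COX20, which help to mature COX1 and COX2 respectively, had log2 fold changes of -1.29 and -1.03. COA6, a copper handling factor of complex IV, rose (1.23). With the trend removed 11 assembly factors were lower and 4 higher in this line, beside 17.1% and 16.0% of all genes. The genes named are therefore not read as a trait of the list.

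Of 9 regulators of these genes, 4 were higher with PAE in SKOV3/DDP and none lower, in the fits with and without the trend, beside 11.8% and 14.7% of all genes (16.0% and 17.1% with the trend removed). NRF1 went from 8.42, 8.40 and 8.75 to 13.05, 11.7 and 16.8 CPM (log2 fold change 0.70, SE 0.22, adjusted p = 0.0302), GABPA from 48.7, 42.1 and 44.2 to 63.9, 75.3 and 106 CPM (log2 fold change 0.86, SE 0.25, adjusted p = 0.0216), and YY1 from 111, 103 and 113 to 183, 144 and 184 CPM (log2 fold change 0.64, SE 0.19, adjusted p = 0.0245). The GABPA locus overlaps the member ATP5PF, with means over the libraries of 57.5 and 81.2 CPM, and the strand of counting is not given. PPARGC1A, a coactivator of mitochondrial biogenesis, had 3.75, 2.84 and 1.90 CPM untreated and 8.83, 11.1 and 11.6 CPM treated (log2 fold change 1.89, SE 0.46, adjusted p = 0.00864). In SKOV3, 6 of the 9 were higher and 1 (ESRRA) lower, beside 42.6% and 32.7% of all genes, and 2 higher and 3 lower with the trend removed, beside 26.5% and 21.7%. NRF1 was -0.44 there (adjusted p = 0.0785).

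Promoters are shown because 3 of these regulators have short known motifs. RefSeq promoters (250 bases before to 50 after the start, GRCh38.p14) matched 72 of the 89 members. On either strand, the NRF1 core TGCGCATGC stood in 7 of them (9.72%), the ETS core CCGGAAGT in 10 (13.9%) and the YY1 core AAGATGGC in 11 (15.3%), against 1.56%, 4.14% and 2.89% of all 35116 promoters. At least 1 of the 3 was present in 25 (34.7%, against 8.08%). The members were taken with 1 promoter per gene, whereas the 35116 were all promoters listed, not limited to protein-coding or tested genes. The sets are therefore unlike in kind. Both an NRF1 and an ETS core were found in COX5B, which fell with PAE in SKOV3, and in SDHD, which rose there by TMM-scaled counts but not with the trend removed. Their stretches from 200 bases before to 10 after the start read as follows, on the strand of the gene with the cores in capitals (COX5B at chr2:97645862-97646071 and SDHD at chr11:112086673-112086882, both on the plus strand).
COX5B: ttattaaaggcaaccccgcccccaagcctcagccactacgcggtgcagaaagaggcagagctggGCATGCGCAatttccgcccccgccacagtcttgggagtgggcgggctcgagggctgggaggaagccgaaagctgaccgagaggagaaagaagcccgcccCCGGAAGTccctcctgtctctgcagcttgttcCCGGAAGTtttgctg
SDHD: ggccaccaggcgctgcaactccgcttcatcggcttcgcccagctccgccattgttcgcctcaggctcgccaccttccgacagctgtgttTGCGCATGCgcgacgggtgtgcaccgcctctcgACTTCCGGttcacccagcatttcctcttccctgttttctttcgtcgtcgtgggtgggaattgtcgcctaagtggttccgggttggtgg
In COX5B the NRF1 core begins 136 bases before the start, and the 2 ETS cores 37 and 5 bases before it. In SDHD they lie 111 and 78 bases before. The NRF1 core was found in 4 promoters of complex I (NDUFA6, NDUFA8, NDUFB4 and NDUFS6), 1 of complex II and 2 of complex IV, and in none of the promoters of complexes III and V. YY1 cores were found in NDUFA7, NDUFS7, SDHB, UQCRC1 and ATP5PB among others. Some promoters hold a core of more than 1 factor, and a match is a stretch of letters, not a measured site.

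Several subunits exist as paralogs that replace each other between tissues. Levels were compared as CPM per kilobase of the annotated transcript. Of subunit 4, COX4I1 had 3271, 765, 262 and 297 CPM per kilobase in SKOV3, SKOV3 with PAE, SKOV3/DDP and SKOV3/DDP with PAE, and the lung and hypoxia form COX4I2 was at or under 0.338 in each. COX6A1 stood at 2196, 347, 271 and 305, while the heart and muscle form COX6A2 reached 0.451 at most. COX6B1 was 907 CPM per kilobase in SKOV3 against 1.74 for the testis form COX6B2, and 147 against 0.224 in SKOV3/DDP with PAE. COX7A2 (613 in SKOV3) and COX7A2L (273), which takes part in joining complexes III and IV, were expressed, and the muscle form COX7A1 was at or under 0.0746. COX7B2 and COX8C, the testis counterparts of COX7B (154) and COX8A (2119), had 0 and 1 count in all 12 libraries. COX6B2 was the one of these tissue-restricted forms that passed the filter on low counts.

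NDUFA4 had 363 ± 71.9 CPM in SKOV3 and 102 ± 15.3 CPM with PAE, and the hypoxia-induced NDUFA4L2 14.95 ± 1.23 and 1.37 ± 0.200 CPM (log2 fold change -3.45, SE 0.57, adjusted p = 5.57e-05). The NDUFA4L2 locus overlaps SHMT2, and the strand of counting is not given in the sources used here. Over the 12 libraries the means were 506 CPM for SHMT2 and 6.09 CPM for NDUFA4L2. NDUFA4L2 has a GC content of 62.9% and was not among the members called lower in all 5 fits. Of the 3 c-ring genes, whose mature proteins are identical, ATP5MC1 had 319, ATP5MC2 235 and ATP5MC3 136 CPM per kilobase in SKOV3. In SKOV3/DDP the values were 56.8, 52.2 and 17.4. The order depends on the long transcript model of ATP5MC3: by CPM without length, ATP5MC3 was the highest of the 3 in SKOV3 (748 CPM against 458 and 196).

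A few subunits that every respiring cell needs were counted at low levels in these tables. UQCRC2 did not exceed 14.5 CPM in any library, NDUFS1 22.3, NDUFA6 had means between 0.288 and 7.15 CPM, NDUFS3 between 0.380 and 7.89, and ATP5F1E between 0.813 and 2.37. NDUFA3 had 1 count in all. Of the 89 members 37 overlap another named gene, and 40 have pseudogene copies by name, whose 117 loci summed to 0.315% of the members' CPM. How reads at such loci were assigned is not given in the sources used here.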

How the data were processed

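Total RNA of 12 samples (3 biological replicates of SKOV3 and SKOV3/DDP cells, each untreated or with PAE) was purified with poly-T beads and sequenced. The authors deposited gene counts per library, with no normalization. The submitters' processing notes name HISAT2 2.0.5, StringTie 1.3.3b, DESeq2 and edgeR; the strand setting of the counting is not given in the sources used here. Loci without a gene name held 0.126% to 0.678% of counts and were left out.

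Groups came from the sample labels. Genes were kept by filterByExpr, leaving 17133, and tested by edgeR 4.0.16 (R 4.3.3, limma 3.58.1) with TMM scaling, the quasi-likelihood test, 1 fit of all 12 libraries and Benjamini-Hochberg adjustment at 0.05. For the allowance, a natural spline (5 degrees of freedom each) of GC content and log2 length of the GENCODE 29 principal transcript was removed from every library as offsets for the 15089 genes with a transcript. Alternatives were DESeq2 1.42.0, limma-voom, fits of only the 6 libraries compared, library size scaling, other count filters, GC alone, a replicate block, leaving out each library and the study's criteria (unadjusted p under 0.05 and a log2 fold change beyond 2 in size). The longest transcript and the coding sequence were added after the data had been seen, since some principal transcripts are very long (SDHC, 13566 bases). Steps were tested on simulated data.

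The members and gene lists were chosen with earlier results of these data known. Named were 15 core subunits (the values of another are not reported here), isoforms, the 3 called members (2 for the difference) of each sign with the largest change and at least 10 CPM, and the 3 of each sign largest with the trend removed and called alike in both fits. NDUFS3, NDUFA6, ATP5F1E, members listed as called in all 5 fits, SDHC, SDHD in the difference of the PAE effect, and the genes of the lists were named after their values were seen. Same-numbered replicates did not deviate together (mean correlations of -0.0509 to 0.0381), so numbers were not taken as pairs. A count of 3 corresponds to 0.164 to 0.205 CPM at these depths of 14610008 to 18263479 counts.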

Additional observations from a re-analysis of the deposited data

Results flagged for a closer look

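In each line, 3 treated and 3 untreated libraries were compared, and the difference between the lines was tested by the interaction term of edgeR's quasi-likelihood test. Groups of 3 are too small to test for a library that stands apart. The effect of PAE was more positive in SKOV3/DDP than in SKOV3 for 51 of the 80 tested members and more negative for 7. All of these values hold the untreated SKOV3 libraries, and a change with PAE and a property of those libraries cannot be told apart.

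In complex I, the difference was 2.33 for NDUFV1, 2.91 for NDUFB8, 4.02 for NDUFB7, 3.88 for NDUFS7 and -2.25 for NDUFA5 on the log2 scale. With the GC and length trend removed the values were 0.0045, 0.86, 0.47, 0.83 and 0.39 in the same order. In complex III, UQCRC1 had 2.22 (0.28 with the trend removed) and UQCRB 1.68 (4.90). In complex IV, COX4I1 had 2.28 (0.24), COX5B 3.69 (2.39), COX6C 1.67 (3.26) and COX7B 2.42 (4.93). The 3 largest of these differences before the trend was removed (NDUFB7, NDUFS7 and COX5B) were not the 3 largest after it (COX7B, UQCRB and COX6C).

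In complex V, ATP5MC1 had 1.45 (-0.65 with the trend removed), ATP5MC3 2.71 (5.64) and ATP5IF1 4.01 (2.46), the last resting on replicate 2 of SKOV3. The difference was negative for ATP5F1A at -2.16 (-0.27), ATP5PB at -2.38 (-0.013) and ATP5PO at -1.26 (-1.78).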

How the results depend on the processing

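The members lower with PAE in SKOV3, lower in untreated SKOV3/DDP and more positive in the difference stayed within 1.5 times the reported counts of 57, 58 and 51 under every alternative run (42 to 62, 42 to 66 and 39 to 55). Smaller counts moved more. With PAE in SKOV3, the 11 members higher became 19 under scaling by library size only, 6 with the GC and length trend removed, also with the replicate block added or from the longest transcript, 1 with GC alone and 5 by the criteria of the study. With PAE in SKOV3/DDP, the 2 higher became 1 with at least 10 counts in every library, with the replicate block alone and by the criteria of the study, 8 with the trend removed (principal or longest transcript), 7 with the replicate block and the trend, and 4 with GC alone or the coding sequence. The 9 lower there became 3 by library size only and 0 by the criteria of the study, which use an unadjusted p under 0.05 and a log2 fold change of 2; edgeR called 9 and DESeq2 10 at the adjusted threshold. For the untreated lines, the 11 higher became 6 by DESeq2, 2 with GC alone, 7 with the replicate block and the trend, and 3 by the criteria of the study. For the lines with PAE, the 15 higher became 9 without a filter and 1 by the criteria of the study, and the 19 lower became 3 by those criteria. The 7 members more negative in the difference became 13 by library size only, 11 without a filter, 1 with GC alone, and 4 with the coding sequence or by the criteria of the study. The replicate block changed the call of no other count by over 1.5 times (12 and 57, 1 and 7, 10 and 58, 12 and 18, and 51 and 7 higher and lower in the 5 comparisons). Scaling by library size only moved the median over all genes by 0.87 with PAE in SKOV3, 0.68 between the untreated lines and -0.68 in the difference.

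Of the values of named members under these alternatives, 2354 kept their direction and their side of the threshold, 138 lost the call, 32 gained one and 57 changed sign. The last were grouped by allowance, and the cause was not tested beyond it. With the GC and length trend removed, the log2 values for PAE in SKOV3 were -0.98 for NDUFS1, 0.032 for NDUFV1, 0.10 for COX4I1, -0.56 for ATP5F1A, 0.023 for ATP5MC1, -0.38 for NDUFA5, -0.24 for ATP5PB and 0.13 for NDUFB7. Between the untreated lines the value was -2.45 for NDUFS1, and in the difference it was -0.65 for ATP5MC1 and 0.39 for NDUFA5. With the replicate block added, NDUFS1 had -1.11 (-2.79 between the untreated lines), NDUFV1 0.031, COX4I1 0.11, ATP5F1A -0.57, ATP5MC1 0.014 (-0.63 in the difference), NDUFA5 -0.35 (0.35 in the difference), ATP5PB -0.23 and NDUFB7 0.13. With GC alone, PAE in SKOV3 gave -0.66 for NDUFS1, -0.49 for SDHB, -0.27 for ATP5F1A, -0.86 for NDUFA5, -0.63 for SDHD, -0.18 for ATP5PB and -0.41 for NDUFV2. GC alone also gave -2.05 for NDUFS1, -0.69 for SDHB, -0.46 for SDHD and -0.47 for NDUFV2 between the untreated lines, and 0.90 for NDUFA5 in the difference. From the longest transcript, PAE in SKOV3 gave -0.93 for NDUFS1, -0.49 for ATP5F1A, 0.12 for ATP5MC1, -1.07 for NDUFA5, -0.11 for ATP5PB, -0.71 for NDUFV2 and 0.10 for NDUFB7. The longest transcript also gave -2.43 for NDUFS1 and -0.48 for NDUFV2 between the untreated lines, and -0.65 for SDHA, -0.75 for ATP5MC1 and 1.06 for NDUFA5 in the difference. From the coding sequence, PAE in SKOV3 gave -0.83 for NDUFS1, -0.58 for SDHB, -0.57 for ATP5F1A and -1.28 for NDUFV2. The coding sequence also gave -2.29 for NDUFS1, -0.65 for SDHB, -0.43 for UQCRC2 and -1.18 for NDUFV2 between the untreated lines, and 0.69 for SDHB and 0.19 for ATP5PO in the difference. By library size only, UQCRFS1 had 0.81 with PAE in SKOV3.

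Leaving out 1 library at a time gave 7 to 12 members higher and 56 to 57 lower with PAE in SKOV3, 1 to 4 and 2 to 9 with PAE in SKOV3/DDP, 6 to 11 and 56 to 60 between the untreated lines, 6 to 17 and 14 to 22 between the lines with PAE, and 49 to 53 and 6 to 9 in the difference. The 7 higher with PAE in SKOV3 came without replicate 3 of SKOV3 with PAE. With PAE in SKOV3/DDP, 1 was higher without SKOV3 replicate 3, SKOV3/DDP replicate 1 or 3, or replicate 1 or 2 of SKOV3/DDP with PAE, and 4 without its replicate 3. The lower count there was 3 without SKOV3/DDP replicate 1, 2 without its replicate 3, 4 without replicate 1 or 2 of the treated group and 5 without its replicate 3. Between the untreated lines, leaving out replicate 3 gave 7 higher for SKOV3 and 6 for SKOV3/DDP. Between the lines with PAE, 6 were higher without replicate 1 of SKOV3 with PAE or replicate 1 or 2 of SKOV3/DDP with PAE, and 8 without replicate 2 of SKOV3 with PAE. ATP5F1B, ATP5F1A, COX5A, SDHC, NDUFB5 and ATP5MC1 with PAE in SKOV3/DDP each lost their call without at least 1 library, as did NDUFS1 and ATP5IF1 with PAE in SKOV3. UQCRC2 had 10 counts over the 3 untreated SKOV3 libraries, so its differences from them rest on few counts. Why it was so low there was not tested.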
